A study of Mus musculus with 2 samples.

Results

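The T-cell receptor alpha and delta locus of the mouse carries the gene segments from which developing T cells assemble the alpha and delta receptor chains, and chromatin accessibility over these segments was measured by DNase-seq in thymus. The segments were taken as all GENCODE M21 genes whose gene type starts with TR_ and whose symbol starts with Trav, Traj, Trac, Trdv, Trdd, Trdj or Trdc. This gave 200 of 55450 annotated genes: 128 Trav, 60 Traj, 6 Trdv, 2 Trdd, 2 Trdj, 1 Trdc and 1 Trac. They span chr14:52427928-54224206 in mm10, all on the plus strand except Trdv5. The samples were thymus tissue from 2 female B6CASTF1/J mice, F1 hybrids of C57BL/6J and CAST/EiJ, both 36 days old, with no treatment named and 1 library each. The labels give both mice 1 donor identifier but number the animals separately, and there was no second condition. No comparison between conditions could therefore be made, and every value is given for each mouse. The annotation describes 1 parental strain, so segments that CAST/EiJ carries in another number or sequence cannot be told apart here.

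Recombination in a thymocyte joins a V segment to a J segment, with a D segment between them in the delta chain, and the joined exon is spliced to a constant exon. The RAG1 and RAG2 proteins cut at recombination signal sequences, a heptamer and a nonamer held apart by a spacer, which lie directly after each V segment and directly before each J segment. The delta segments lie inside the alpha locus, so that joining a Trav to a Traj removes the delta D, J and C segments between them from that chromosome. In textbook accounts, a strong enhancer downstream of Trac drives the locus in CD4+ CD8+ thymocytes, and promoters at the 5' end of the Traj array, among them the T early alpha promoter, open the first Traj segments to recombination. DNase I cuts accessible DNA, so a peak marks a stretch that was cut more than its surroundings. In whole tissue, fewer cells with an open site and a less open site in every cell cannot be told apart, nor can either be told apart from the loss of the segment by recombination in some cells.

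Shown as sequence are 4 strong peaks around the constant-region end, the peak before Traj61 and the 2 shared peaks of the Traj array, because the results on the J and C segments turn on them. Each is the 200 bp window at the centre of a peak called in both mice, plus strand of GRCm38.p6 (mm10), and the capitals mark exact matches to the searched motifs, TGTGGT for the RUNX factors, AGGAAG for the ETS factors, CTTTGA for TCF and LEF factors, TGACGT for the cyclic AMP response element, AGATAA for the zinc fingers of the GATA family, CAACTG for MYB, CAGCTG for one kind of E-box, CAGGTG for another, and the CTCF consensus, on either strand. Matches of different motifs may overlap, and a match is a string of letters and not a bound site.
3154 bp past Trac, chr14:54227436-54227635: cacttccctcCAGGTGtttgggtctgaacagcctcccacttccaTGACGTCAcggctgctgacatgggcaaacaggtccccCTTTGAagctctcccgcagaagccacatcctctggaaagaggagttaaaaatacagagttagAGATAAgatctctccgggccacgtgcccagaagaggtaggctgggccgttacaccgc
3974 bp past Trac, chr14:54228206-54228405: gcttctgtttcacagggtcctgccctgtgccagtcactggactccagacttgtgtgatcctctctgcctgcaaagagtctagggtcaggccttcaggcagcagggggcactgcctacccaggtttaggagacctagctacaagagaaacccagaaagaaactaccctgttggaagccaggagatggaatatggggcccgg
9154 bp past Trac, chr14:54233361-54233560: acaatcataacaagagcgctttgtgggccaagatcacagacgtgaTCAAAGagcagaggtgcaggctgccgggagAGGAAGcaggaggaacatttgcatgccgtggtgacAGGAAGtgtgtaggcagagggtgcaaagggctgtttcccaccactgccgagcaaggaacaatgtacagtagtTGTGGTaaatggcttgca
Dad1 intron, chr14:54239096-54239295: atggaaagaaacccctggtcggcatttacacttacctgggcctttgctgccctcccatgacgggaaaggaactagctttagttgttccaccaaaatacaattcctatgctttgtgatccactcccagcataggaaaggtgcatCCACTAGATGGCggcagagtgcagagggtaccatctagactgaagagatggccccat
1844 bp before Traj61, chr14:54152946-54153145: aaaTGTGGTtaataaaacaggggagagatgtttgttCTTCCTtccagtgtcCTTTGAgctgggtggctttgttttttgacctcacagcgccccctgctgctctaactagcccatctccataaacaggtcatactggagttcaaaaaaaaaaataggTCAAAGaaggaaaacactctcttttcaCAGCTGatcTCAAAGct
Traj49, chr14:54168511-54168710: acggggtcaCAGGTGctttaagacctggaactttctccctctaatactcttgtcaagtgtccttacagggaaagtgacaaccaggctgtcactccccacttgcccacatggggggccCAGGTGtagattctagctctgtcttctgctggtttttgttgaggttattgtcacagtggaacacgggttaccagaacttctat
Traj42, chr14:54175604-54175803: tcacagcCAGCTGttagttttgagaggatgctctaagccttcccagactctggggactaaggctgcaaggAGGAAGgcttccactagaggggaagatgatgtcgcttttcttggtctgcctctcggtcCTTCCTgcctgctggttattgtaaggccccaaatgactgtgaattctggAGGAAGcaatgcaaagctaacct

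The strongest window, between Trac and Dad1, held TGACGT on both strands as the palindrome TGACGTCA, followed by CTTTGA and AGATAA and preceded by CAGGTG. The window 9154 bp past Trac held 2 AGGAAG matches, TGTGGT and CTTTGA, the last on the minus strand. The window in the Dad1 intron held the CTCF consensus, and the window 3974 bp past Trac held no match to any searched motif, which says only that these letters are not in it. The window before Traj61 held 3 CTTTGA matches, 1 TGTGGT, 1 AGGAAG and 1 CAGCTG. The Traj49 window held 2 CAGGTG matches, and the Traj42 window held 3 AGGAAG matches and 1 CAGCTG. Of the 46907 pairs of peaks shared by the mice across the genome, 17.7% of such windows held TGTGGT, 35.4% AGGAAG, 12.2% CTTTGA, 5.28% TGACGT, 5.09% AGATAA, 9.59% CAACTG, 18.8% CAGCTG, 25.7% CAGGTG and 6.58% the CTCF consensus. Among the 101 shared pairs of the locus and its 50 kb flanks, TGTGGT was in 40 windows (39.6%), CAGCTG in 39 (38.6%), AGGAAG in 40 (39.6%), CTTTGA in 17 (16.8%), CAGGTG in 35 (34.7%), AGATAA in 10 (9.90%) and the CTCF consensus in 7 (6.93%). TGACGT was in 4 (3.96%) and CAACTG in 6 (5.94%), both below the genome share. Many of these windows are copies of one another within a Trav family, and the difference from the genome was not tested. Some matches at Trav 3' ends, as at Trav13n-4, lie partly or wholly in the recombination signal sequence itself.

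The locus and its 50 kb flanks held 128 peaks in mouse 1 and 159 in mouse 2, out of 59484 and 72913 in the genome. Within the locus itself there were 114 and 132 peaks, or 6.35 and 7.35 per 100 kb, against a genome mean of 2.32 and 2.84. Of the mouse 1 peaks of the locus and flanks, 101 (78.9%) had an overlapping counterpart in mouse 2, next to 80.8% across its genome. In the other direction the share was 63.5%, next to 66.1% over the genome. The signal of a peak is its depth-normalised height in the deposited list, on a scale with no name in the sources used here. The median peak of the genome had a signal of 1.23 in mouse 1 and 1.45 in mouse 2. Over the 101 shared pairs the median log2 ratio of mouse 2 to mouse 1 was 0.33 (SD 0.60 across pairs), below the 0.75 of all 46907 genome pairs and close to the 0.31 of the 17975 genome pairs whose windows had 48 to 55.5% GC, the middle range of GC of the locus windows.

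**Figure D1:**
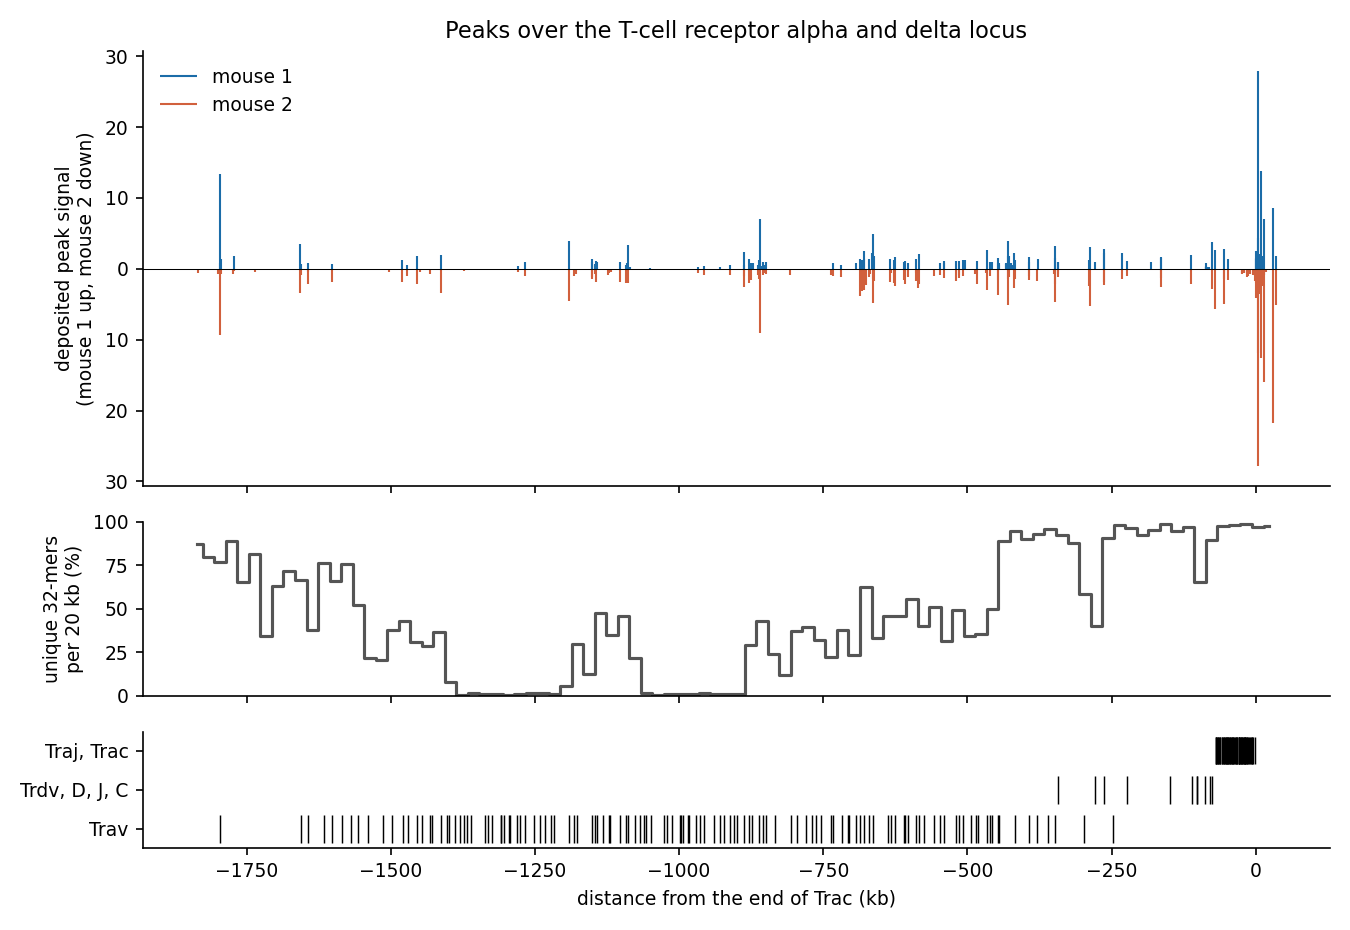
Top, the deposited signal of every peak of the shorter peak list against distance from the end of Trac in kb, mouse 1 upward and mouse 2 downward, middle, the percentage of 32-mers that occur once in the reference genome per 20 kb, and bottom, the segments. The highest lines of both mice, 28.0 and 27.8, stand just to the right of Trac, and the stretches near 0% unique sequence coincide with the duplicated Trav blocks.

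The tissue carried the promoter accessibility of thymocytes. All 12 thymocyte markers, among them Cd3e, Cd8a, Rag1 and Ptcra, had a peak within 1 kb of an annotated start in both mice. By comparison, 56.6% of all protein-coding genes had such a peak. Of the 4 myeloid, 4 erythroid, 4 thymic epithelial, 3 stromal and 3 endothelial markers, 1, 1, 1, 2 and 1 had one, and the starts of Adgre1, Csf1r, Hbb-bs, Foxn1 and Cdh5 had none in either mouse. Of the B cell markers, Cd79a had no start peak in either mouse and Pax5 had one of 2.42 and 6.75. All 26 genes of the list of recombination factors and regulators of the locus had a start peak in both mice. The share of 56.6% is the background of this count too, and the difference was not tested. The recombinase genes Rag1 and Rag2 stood at 10.9 and 7.38 in mouse 1 and at 10.04 and 8.49 in mouse 2, and Dntt, the template-free polymerase that adds nucleotides at the joins, had the lowest values of the list at 2.20 and 2.37.

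Of the 200 segments, 67 in mouse 1 and 82 in mouse 2 had a peak within 1 kb, 59 of them (29.5%) in both. For comparison, 29.7% of all 53843 annotated genes on chromosomes 1 to 19 and X, and 56.6% of the protein-coding ones, had a peak within 1 kb of a start in both mice. Of 2 kb tiles of the same chromosomes, 3.22% had a peak in both mice, 1.29% in mouse 2 alone and 0.46% in mouse 1 alone. A segment without introns is little more than 2 kb wide with its flanks, so the tile is the nearer reference for the Traj, Trdd and Trdj segments. Most Trav windows are only somewhat wider than the tile, so it is close in width to them too, though a wider window meets a peak more often. The classes differed widely: 48 of 128 Trav segments (37.5%), 4 of 6 Trdv, neither Trdd, neither Trdj and 5 of 60 Traj (8.33%) had a peak in both mice, as did Trdc and Trac.

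Trac, the single constant segment of the alpha chain, at chr14:54220521-54224206, had a strongest signal within 1 kb of 2.51 in mouse 1 and 2.05 in mouse 2. These were different peaks, both past its 3' end, and each had a counterpart in the other mouse. Inside the segment itself mouse 1 had no peak and mouse 2 had 3, of 0.972, 0.826 and 1.66. The share of its bases in cut-rate runs, the stretches where the authors found the local rate of cutting raised at a false discovery rate under 0.05, was 9.12% in mouse 1 and 43.9% in mouse 2.

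The interval of 11.3 kb from Trac to Dad1 had the highest share of accessible bases among the stretches of the locus compared here. Dad1, a subunit of the oligosaccharyltransferase that is needed for N-glycosylation, is the nearest protein-coding gene on this side and runs on the opposite strand. The interval had 10 peaks in mouse 1 and 17 in mouse 2, and 46.9% and 86.5% of its bases lay in cut-rate runs. The mean over 10 kb tiles of the genome was 1.36% and 1.56%, and 0.0892% of those tiles reached 40% in both mice. Of the 255608 tiles, 244 had a higher share than this interval in mouse 1 and 15 in mouse 2. As in Trac, mouse 2 had more bases in runs.

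Coordinates of a shared peak span the calls of both mice, and distances are to the call of mouse 1. The strongest of these peaks, at chr14:54227361-54227760, was the strongest of the whole locus and flanks in both mice, with signals of 28.0 and 27.8 (mean 27.9, SD 0.119). It begins 3154 bp past the end of Trac, on the side where the alpha enhancer is known to lie, and held 9 footprints in mouse 1 and 4 in mouse 2. Footprints are the short protected stretches that the authors called inside cut regions. The peak at chr14:54233361-54233560 had 13.7 and 12.6, again close between the mice. The peak at chr14:54228181-54228420 had 4.38 and 11.9, and was higher in mouse 2.

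The other 6 shared peaks of the interval were weaker. Their signals were 1.53 and 2.05, 2.51 and 4.09, 1.84 and 2.12, 1.53 and 3.56, 2.14 and 3.36, and 1.73 and 2.20, in order from Trac to Dad1, each pair with mouse 1 first. All 6 were higher in mouse 2, and over all 9 shared pairs of the interval the median log2 ratio was 0.42. It was 0.75 over all shared pairs of the genome and 0.31 over those of 48 to 55.5% GC. The strongest peak of mouse 2 that mouse 1 lacked anywhere in the locus and flanks, chr14:54227021-54227240 with 4.04, lay in this interval, next to the strongest shared one. The strongest peak of mouse 1 that mouse 2 lacked, chr14:54225098-54225149 with 1.46, lay there too. The next 2 of mouse 2 alone, with 2.74 and 2.30, lay near Trav13-2 and Trav13-1, and the next 2 of mouse 1 alone, with 1.24 and 0.976, near Trav7-6 and between Trdv3 and Trdv4.

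Beyond the interval, the intron of Dad1 held a shared peak at chr14:54239041-54239340 with 7.10 and 15.97, and the start of Dad1 one at chr14:54253801-54254100 with 8.60 and 21.7. Both were higher in mouse 2, like the peak 3974 bp past Trac and like the median shared pair of the genome. On the other side of the locus the nearest protein-coding gene is the olfactory receptor gene Olfr1510, 13.6 kb upstream of Trav1, with no start peak in either mouse.

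**Figure D2:**
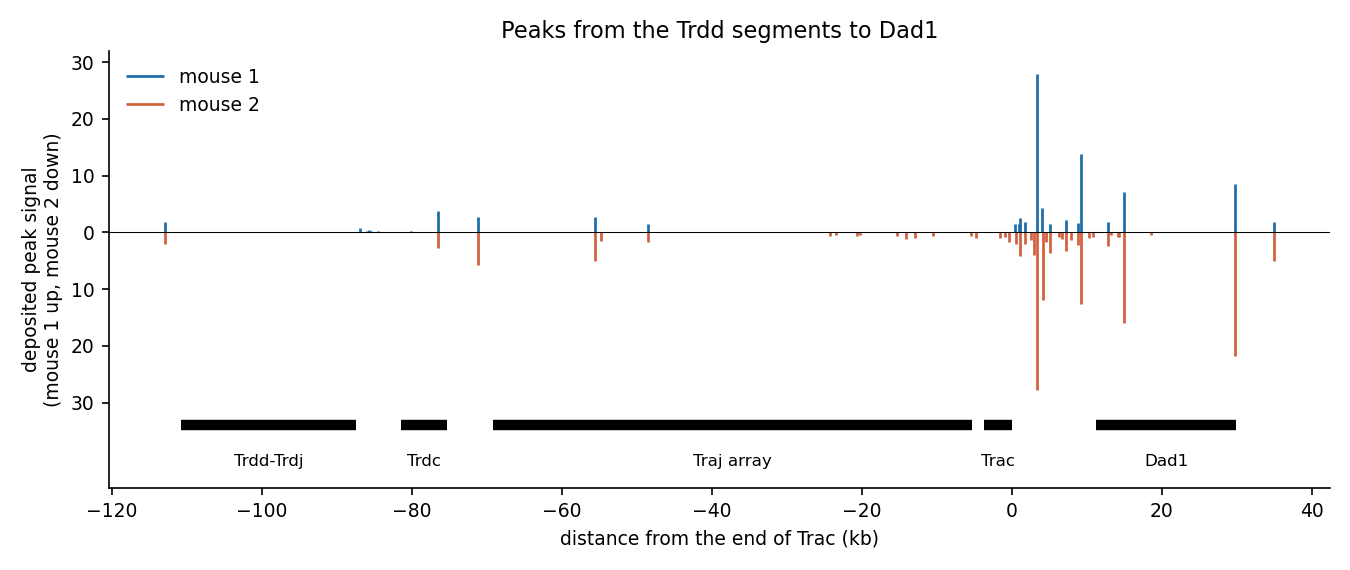
Deposited peak signal against distance from the end of Trac in kb, mouse 1 upward and mouse 2 downward, from the Trdd segments to past Dad1, with black bars for the named features. The highest line of each mouse (28.0 and 27.8) stands 3154 bp or more past Trac, the middle of the Traj array holds no line in either mouse, and the part of the array next to Trac holds lines only in mouse 2.

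The Traj array, the 60 alpha joining segments on 63.8 kb, was accessible in 2 different ways. At its 5' end the mice shared 2 peaks and mouse 2 had 1 more, and at its 3' end mouse 2 alone had any. In all, the array held 2 peaks in mouse 1 and 12 in mouse 2 (3.13 and 18.8 per 100 kb), and 1.33% and 8.64% of its bases were in cut-rate runs. Nearly all of its sequence is unique, with 98.3% of 32-mers occurring once in the genome. Within 1 kb, 5 segments had a peak in mouse 1 and 18 in mouse 2, and the 5 were among the 18.

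Those 5 segments were served by 2 peaks. The one at Traj49, chr14:54168501-54168720, had 2.76 and 4.96, covered the start of the segment and its signal sequence, and was also within 1 kb of Traj50. A promoter is known to lie at Traj49. The one at Traj42, chr14:54175621-54175800, had 1.45 and 1.61, ended 34 bp before the segment in mouse 1, reached into it in mouse 2 and was within 1 kb of Traj43 and Traj41. Traj48 followed in signal, with no peak in mouse 1 and 1.45 in mouse 2.

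Upstream of the array, the interval of 6.14 kb between Trdc and Traj61 held a single peak in each mouse, chr14:54152941-54153160, with 2.72 and 5.72. It ended 1844 bp before Traj61 and was higher in mouse 2, as was the median shared pair of the genome. The T early alpha promoter is known to lie in this interval. Traj61 itself, a pseudogene at the 5' end of the array, had no peak within 1 kb in either mouse, and neither had Traj60, Traj59, Traj58 and Traj57.

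In the middle of the array, the 20 segments from Traj40 to Traj21 had no peak within 1 kb in either mouse, and 0% and 0.799% of the 22.5 kb were in cut-rate runs. Among the 19 segments from Traj20 to Traj1, none had a peak in mouse 1 and 12 had one in mouse 2. Mouse 2 had 9 peaks over these 19.996 kb, with signals from 0.519 to 1.11, all below the median peak of its genome. The share of bases in runs was 0% in mouse 1 and 19.7% in mouse 2, with 0 and 32 footprints. Traj1, the last segment, stood at no peak and 0.932. The longer peak list gave the same order, with 0 and 21 peaks. Of 127667 tiles of 20 kb across the genome, 19 (0.0149%) had no run in mouse 1 and at least 15% of bases in runs in mouse 2, a setting chosen after these values were seen. With 1 library per mouse, a difference between the animals and a difference between the libraries cannot be told apart.

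**Figure D3:**
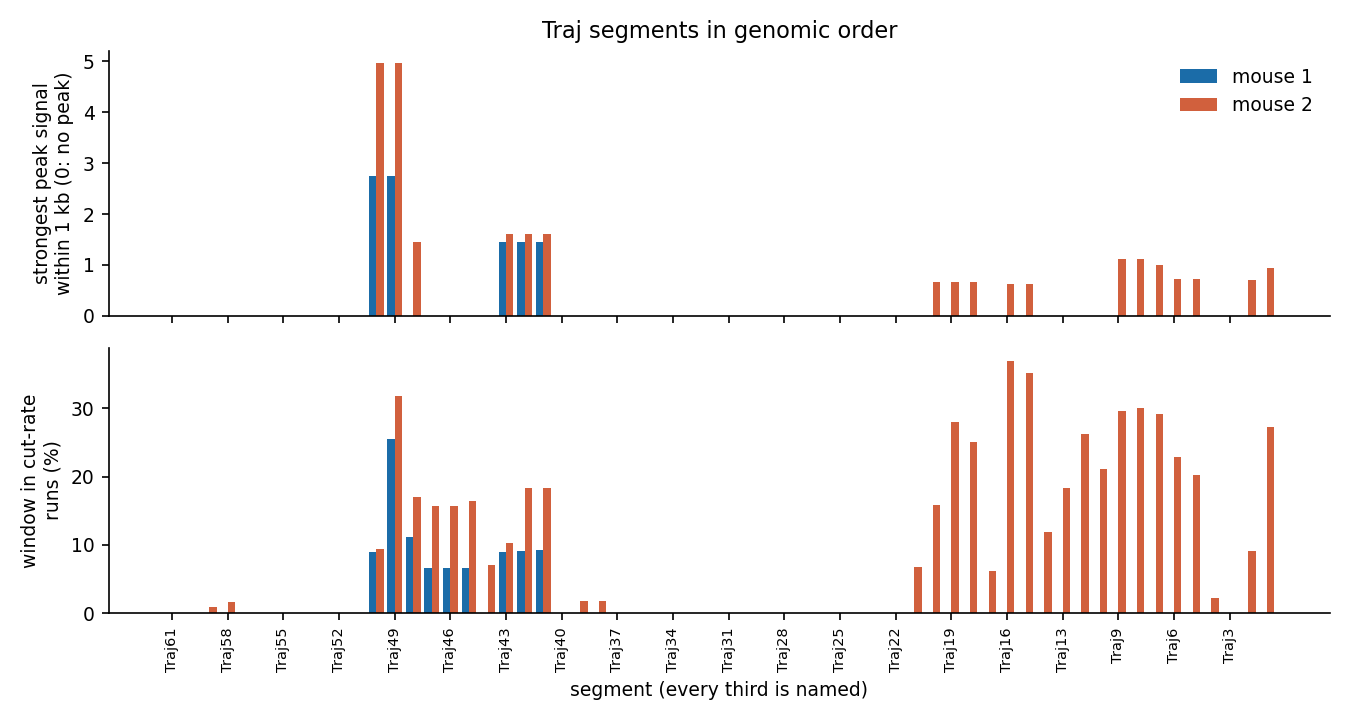
Top, the strongest deposited peak signal within 1 kb of each Traj segment (0 where there is no peak), and bottom, the percentage of that window in cut-rate runs, for both mice, with segments in genomic order from Traj61 to Traj1. The bars of mouse 1 stand around Traj49 and Traj42, and mouse 2 has further bars from Traj20 to Traj1.

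Among the delta segments, Trdc, the constant segment at chr14:54142851-54148868, had a peak inside it at chr14:54147601-54147820 with 3.84 and 2.78. The same peak lies within 1 kb of Trdv5, the V segment that sits after Trdc in inverted orientation, so that it counts for both. Trdd1 and Trdd2, the diversity segments, had no peak within 1 kb in either mouse. In the longer peak list Trdd1 had 0.747 and 0.433, and Trdd2 had none. The nearest shared peak, chr14:54111161-54111400 with 1.91 and 2.12, ended 2067 bp before Trdd1. Trdj1 had no peak in either mouse, and Trdj2 had 0.862 in mouse 1 and none in mouse 2.

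Mouse 1 had more peaks than mouse 2 between Trdd1 and the end of Trdc, 7 against 1, and 6.49% against 2.67% of the bases in cut-rate runs. This is the reverse of the order at the 3' end of the Traj array. The 6 peaks of mouse 1 alone had signals between 0.211 and 0.862, all below the median peak of its genome. They lay from 400 bp past Trdj2 to within Trdc. In this stretch 74.7% of 32-mers occur once in the genome, against 98.3% in the Traj array. The delta enhancer is known to lie between the delta J segments and Trdc. In the longer list the counts were 9 and 5, a smaller gap.

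The 6 Trdv segments, the V segments used for the delta chain alone, had a peak within 1 kb in 5 cases in mouse 1 and 4 in mouse 2. Trdv2-2 had 2.81 and 2.31. Trdv1 had 0.919 and 1.11, and the pseudogene Trdv3 had 1.11 and 0.947. Trdv2-1 had 0.964 in mouse 1 and none in mouse 2, where the longer list gave 0.418. Trdv4 had no peak in either mouse and in either list. Apart from Trdv2-1 and Trdv4, the mice stood close together, with neither ahead in all segments.

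The Trav segments extend over 1549.8 kb, from Trav1 to Trav23, and had 54 members with a peak within 1 kb in mouse 1 and 58 in mouse 2. Peak density was nearly the same in both, at 6.32 and 7.03 per 100 kb, and so was the share of bases in cut-rate runs, at 2.89% and 2.89%. In the Traj array the mice stood further apart. Of the 48 with a peak in both mice, 44 were among the 108 segments that are not annotated as pseudogenes (40.7%) and 4 among the 20 pseudogenes. This difference was not tested.

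Trav1, the segment farthest from the Traj array, had the strongest peak of any segment, with 13.4 and 9.35 (mean 11.4, SD 2.86). It lies over the segment's start, at chr14:52427761-52428000. At the other end Trav23, the nearest Trav to the array, had no peak in either mouse. Next after Trav1 were Trav13n-4 with 7.10 and 9.12, Trav15-1-dv6-1 with 4.96 and 4.801, Trav13d-3 with 3.94 and 4.48, Trav21-dv12 with 3.27 and 4.68, Trav2 with 3.48 and 3.44, Trav13-4-dv7 with 2.60 and 3.01, and Trav13-1 with 2.51 and 2.96. Of these 8, Trav1, Trav15-1-dv6-1 and Trav2 were higher in mouse 1 and the other 5 in mouse 2. Names with dv mark V segments used for both chains. A further V gene of the locus with another kind of symbol, B230359F08Rik, is not among the 200 and had a start peak of 3.89 and 5.09.

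The Trav peaks fell into 2 positions. In both mice peaks covered the stretch just before the segment start most often, in 24.6% of the 134 Trav and Trdv segments at 60 bp before the start in mouse 1 and at 50 bp in mouse 2. A second rise lay at the 3' end, over the junction to the signal sequence. Of the 48 Trav with a peak in both mice, 23 had a peak in both mice on the start side alone, 10 at the 3' end alone, 12 at both and 3 at neither. The start side is where V promoters lie, and the 3' end is where RAG cuts. These windows, from 300 bp before to 50 bp into the segment and from 50 bp before to 150 bp past its end, were set after the profile was seen.

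**Figure D4:**
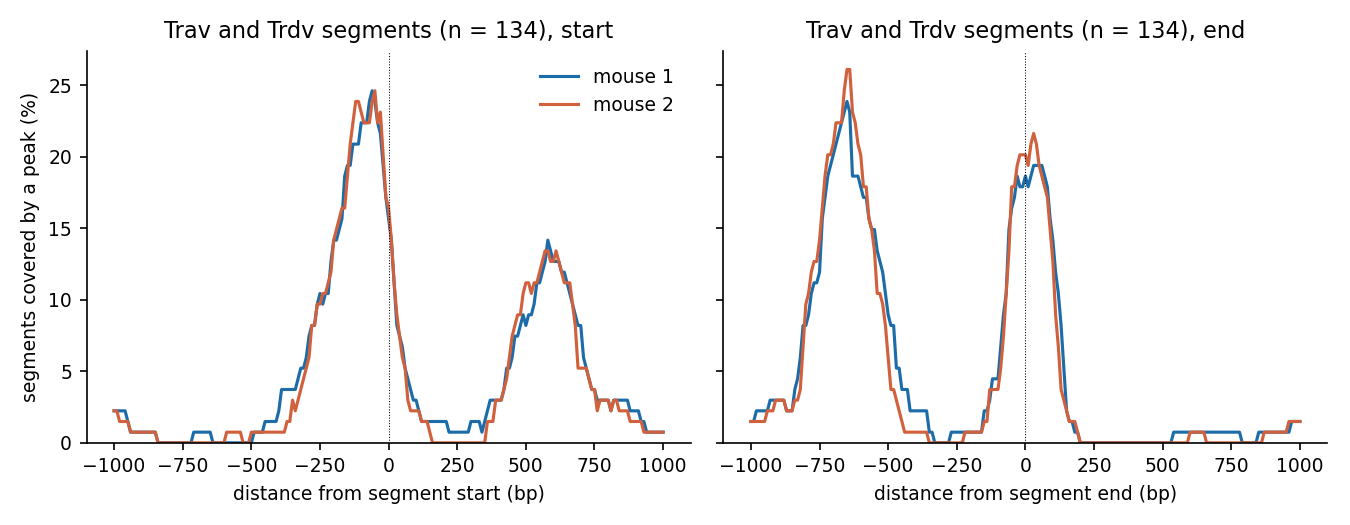
Percentage of the 134 Trav and Trdv segments covered by a peak at each distance from the segment start (left) and end (right) in bp, for both mice. Both mice peak just before the start, at 24.6%, and have a second rise at the segment end; the far maximum in each panel is the other end of the same segments.

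The families differed in where their peaks lay. In Trav13, 7 of 12 segments had a peak in both mice, and all 7 had it at the 3' end, 4 of them also at the start. In Trav10 all 3 segments had a start-side peak and none a 3' peak. In Trav12, 3 of 10 had a start-side peak and none a 3' peak, and in Trav15, 4 of 9 had a start-side peak and 1 a 3' peak. None of the 3 Trav16 segments had a peak in both mice. Members of a family are copies and are not independent of one another.

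Much of the Trav region could not be read segment by segment. The mouse locus holds a large repeat, whose copies carry d and n in their segment names, and the median share of unique 32-mers in a segment's 1 kb window was 24.05% over all Trav, against 99.1% over Traj. By block, 4 of 8 distal segments, 8 of 39 of the d block, 10 of 34 of the n block, 22 of 40 of the central block and 4 of 7 of the proximal block had a peak in both mice. The median unique share was 88.9%, 2.18%, 1.24%, 42.0% and 95.4% in the same order. Of the 16 Trav with at least 80% unique sequence 10 had a peak in both mice, of the 19 with 50 to 80% 16, and of the 93 with less 22. The part of sequence uniqueness in these counts was not tested, and no label or header says how reads with several matches were treated.

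**Figure D5:**
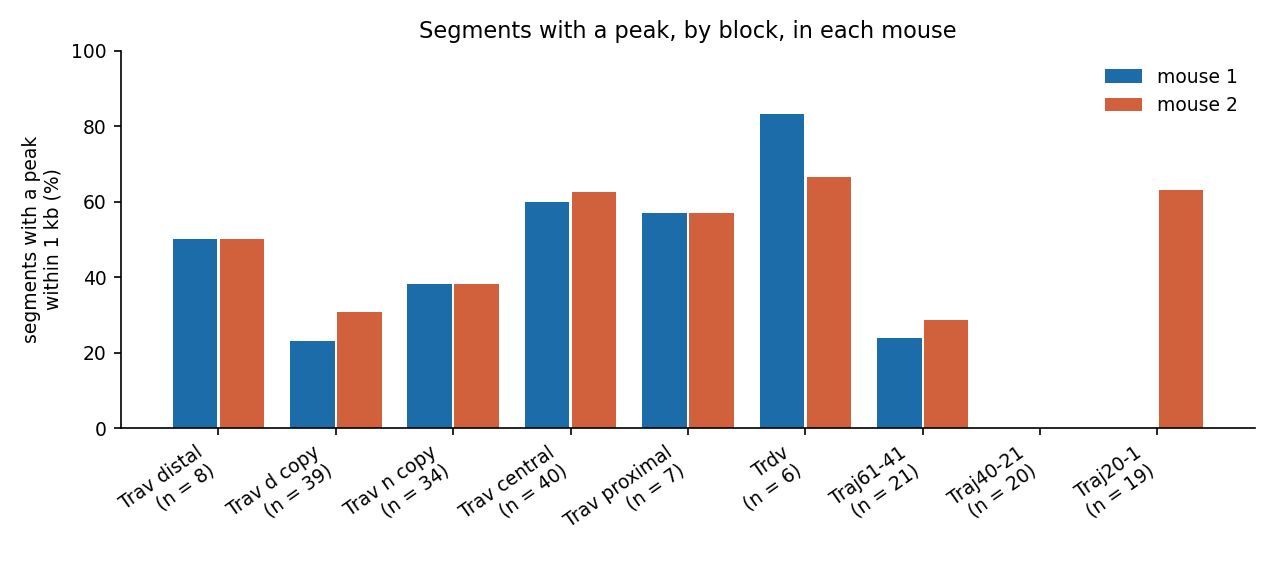
Percentage of segments with a peak within 1 kb in each mouse, by block, with the number of segments under each pair of bars. The Trav and Trdv blocks are similar in both mice, Traj40 to Traj21 has no bar in either, and Traj20 to Traj1 has a bar in mouse 2 alone.

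Signal sequences were located by letters, as the best match to the heptamer CACAGTG and the nonamer ACAAAAACC, and scored by the number of the 16 letters that matched. One was found at 124 of 128 Trav, 120 of them exactly at the segment edge, and at 50 of 60 Traj, 47 of them at the edge. No lowest score was required. Scores ran from 7 to 16 in both classes, with medians of 14 and 13, and from 11 outside pseudogenes. Signal sequences are shown for 5 segments with a peak over them in both mice and for Traj42, where only the mouse 2 peak reached it. They are given on the plus strand, with heptamer and nonamer in capitals. A V signal sequence follows its segment, heptamer first, and a J signal sequence precedes its segment, nonamer first.
Trav13n-4, chr14:53364107-53364145: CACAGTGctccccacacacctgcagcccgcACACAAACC
Trav15-1-dv6-1, chr14:53560248-53560286: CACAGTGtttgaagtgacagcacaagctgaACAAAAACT
Trav21-dv12, chr14:53876753-53876790: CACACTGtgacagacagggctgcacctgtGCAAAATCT
Trdv1, chr14:53882218-53882256: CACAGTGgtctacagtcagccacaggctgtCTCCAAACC
Traj49, chr14:54168658-54168685: GGTTTTTGTtgaggttattgtCACAGTG
Traj42, chr14:54175745-54175772: GGTTATTGTaaggccccaaatGACTGTG

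A peak lay over the signal sequence in both mice at 22 of the 124 Trav (17.7%) and 1 of the 50 Traj (2.00%), Traj49. A footprint touched it in both mice at 15 Trav (12.1%), at Trdv1 and at Traj42. Where an overlap of at least 5 bp was asked for, 13 Trav (10.5%) and no Traj kept a footprint in both mice. The contact at Traj42 in mouse 1 was shorter than 5 bp. No share over other windows of this length was taken, so these counts cannot be read as binding at the signal sequence. In mouse 1 footprints touched 19 Trav and 1 Traj signal sequence, and in mouse 2 they touched 29 and 5. The strongest of the 3' peaks, at Trav13n-4, had no footprint over the signal sequence in either mouse, while Trav15-1-dv6-1 and Trav21-dv12 had one in both. The windows of Trav13n-4, Trav13d-3, Trav13-4-dv7 and Trav13-1 held the RUNX, ETS, GATA and both E-box letters alike, as near copies of one sequence. At Trav13n-4, 1 TGTGGT match runs into the heptamer of the signal sequence, and the CAGGTG match lies in its spacer. Trav21-dv12 and its window have another sequence and held CAGGTG alone.

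Other antigen receptor loci were read with the same windows. In T-cell receptor beta, 10 of 35 V, both D and 9 of 14 J segments had a peak in both mice, and in T-cell receptor gamma 1 of 15 segments. In the immunoglobulin heavy locus 38 of 217 segments did (17.5%), and in the kappa and lambda loci none of 166 and none of 12. The beta J segments, with 10 of 14 in mouse 1 and 13 in mouse 2, had a peak more often than the Traj segments in each mouse, in windows that overlap because the segments lie close together. These shares were set side by side and not tested.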

How the data were processed

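DNase-seq libraries of thymus from 2 mice were compared as deposited, each with 2 peak lists, cut-rate runs and footprints on mm10, per the text deposited with the files. No source used here gives the caller, aligner, read length or depth. The deposited signal of a peak is a depth-normalised height made by the authors; its values were whole multiples (within 0.02) of 0.00638 in mouse 1 and 0.00504 in mouse 2 for 100% of the values checked. The cut-rate runs carry an FDR, an adjusted p-value computed by the authors, and only those under 0.05 are listed. The shorter peak list of each library was used, and the longer one as an alternative.

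Peaks, runs and footprints were assigned to each GENCODE M21 segment with 1 kb on each side, by an overlap of at least 1 bp, and to the locus with 50 kb on each side. Shared pairs were the peaks of both mice that overlapped each other most. Unique 32-mers, motifs and signal sequences were read from RefSeq GRCm38.p6 with pysam 0.24.0, and the searches were tested on simulated data. Named were Trac, Trdc, all Trdv, Trdd and Trdj, Traj61 and Traj1, the 6 Traj and 8 Trav of highest mean signal, 5 Traj without a peak, the ends of the Trav region, the neighbouring genes, the 10 strongest shared peaks, all shared peaks from Trac to Dad1, those between Trdc and Traj61, and the 3 strongest unshared peaks per mouse. Members and lists were chosen with earlier results of these data known. With 1 group of 2 mice no test was run, and the spread between the mice may be technical. Alternatives were other lists, windows, subsets, overlaps and each mouse alone. The count for 1 list of cell type markers, that of B cells, is not reported here.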

Additional observations from a re-analysis of the deposited data

How the results depend on the processing

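Of 54 alternative values, 35 stayed within 1.5 times the reported count or within 1 SD, 19 moved and none changed sign. The SD was that between the mice, except for the signal ratio, where it was across pairs, and for the share of shared peaks, where it was between the directions. For the densities and the share of bases in runs, each mouse alone lies within 1 SD of the mean of both by arithmetic. Those values were fixed to stay and say nothing about stability. Other values were fixed to move by arithmetic and say as little. They are the share of shared peaks taken over mouse 2 and the Traj footprint share of mouse 2 alone. The count among Trav with at least 80% unique 32-mers is another, as it could not exceed 16, against 48 in the main count. With the longer peak list the Traj segments with a peak in both mice rose from 5 to 9, the delta segments from 5 to 8, the peaks of the locus and flanks from 143.5 to 226.5 (mean of both mice), and the density per 100 kb from 10.97 to 25.8 in the Traj array and from 6.68 to 10.7 in the Trav region. With the stronger 50% of peaks the Trav segments fell from 48 to 22, the delta segments to 3, the peaks to 67.5 and the Trav density to 2.87. With no flank the Traj, Trav and delta segments numbered 1, 26 and 3. With 250 bp and 2.5 kb of flank the Traj segments numbered 2 and 10. Among the 16 Trav with at least 80% unique 32-mers 10 were counted, a share of 62.5% against 37.5% of all Trav. The share of shared peaks was 63.5% when taken over mouse 2, and the share of locus bases in runs 1.71% at an FDR of at most 0.001 against 2.98%.

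Leaving out a mouse gave 5 to 18 Traj, 54 to 58 Trav and 5 to 7 delta segments, 128 to 159 peaks, densities of 3.13 to 18.8 (Traj) and 6.32 to 7.03 (Trav), 2.86 to 3.09% of bases in runs, and 2.00 to 10% of Traj signal sequences with a footprint, against 2.00% in both mice. The 18 Traj segments are the count in mouse 2 alone. With footprints that overlap by at least 5 bp, the share of Traj signal sequences with one in both mice was 0%. The causes were not tested. No paired analysis was possible because both mice belong to 1 group. Read depth is unknown, so that a segment without a peak was not detectably open in these lists.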
